A study of Mus musculus with 11 samples.

Results

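The oxidative phosphorylation (OXPHOS) system was described at the level of its subunit genes, which lie in 2 genomes. Protein-coding genes were taken by their GENCODE M21 symbol: Ndufa, Ndufb, Ndufc, Ndufs and Ndufv genes without the Ndufaf assembly factors, Uqcr genes, Cyc1, Sdha to Sdhd, Cox4 to Cox8 genes, Atp5 genes, and the mt-Nd, mt-Cyt, mt-Co and mt-Atp genes. This gave 100 of the 56748 genes of the count table, 87 encoded in the nucleus and 13 on the mitochondrial chromosome. The nuclear genes held 36 of complex I, 4 of complex II, 9 of complex III, 20 of complex IV and 18 of complex V. The mitochondrial genes held 7 of complex I, 1 of complex III, 3 of complex IV and 2 of complex V. Ndufa4 and Ndufa4l2 were placed in complex IV, where the Ndufa4 protein is known to sit.

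The libraries were total RNA of CD4 T cells from mouse liver after chronic injection of carbon tetrachloride (CCl4), a liver toxin that causes fibrosis, for 5 weeks. All animals of both genotypes were injected, and no uninjured group was analysed here. 6 libraries came from ATG5TLymph-/- mice, in which the autophagy gene Atg5 is deleted in T lymphocytes, and 5 from wild-type ATG5fl/fl mice, which carry the floxed allele without that deletion. The sources used here do not name the line that drives the deletion, the age or sex of the mice, or any pooling of animals. The series text describes cells sorted by flow cytometry, whereas the labels' extraction protocol describes sections of fixed, paraffin-embedded blocks. Nothing states that each library came from a separate animal, so the p-values measure the spread between these libraries.

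The libraries held 30699408 to 47564440 counts on genes. Cd4 itself stood at 827 ± 145 CPM (gene counts scaled to a common library size; SD, n = 6) in Atg5-deficient and 668 ± 35.8 (n = 5) in wild-type libraries, and Cd8a and Cd8b1 together at 4.21 to 6.47 CPM in all 11. Atg5 was not lower in the libraries labelled as deficient, at 19.2 ± 2.51 against 16.9 ± 3.59 CPM. The estimate of 0.18 on the log2 scale (SE 0.14) had an adjusted p of 0.488. The gene count does not show which exons were read. The sum of 8 hepatocyte markers ran from 45.4 to 831 CPM in Atg5-deficient and from 31.2 to 525 CPM in wild-type libraries. The sum of 3 NK cell markers was 0.632 to 4.91 and 3.36 to 10.2 CPM, and that of 10 CD4 T cell markers 2877 to 4291 and 3000 to 3297 CPM. In bulk RNA, fewer cells of a type and less RNA per cell cannot be told apart.

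Complexes I to IV form the respiratory chain of the inner mitochondrial membrane. Complex I oxidises NADH and complex II succinate; both hand electrons to ubiquinone, complex III passes them on to cytochrome c and complex IV to oxygen. Complexes I, III and IV pump protons, and complex V, the ATP synthase, uses their return to make ATP. Every complex but II mixes subunits from both genomes, so its assembly needs mRNA made in the nucleus and mRNA made inside the organelle. T cells raise respiration as they become activated, and autophagy is known to remove mitochondria in T cells.

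The mitochondrial genome has old copies in the nuclear genome, and in the mouse a long one lies on chromosome 1. GENCODE M21 annotates 7 unprocessed pseudogenes there, between 24611535 and 24616197 (GRCm38, 4663 bases, minus strand). They match mt-Nd3, mt-Nd4, mt-Nd4l, mt-Co1, mt-Co2, mt-Co3 and mt-Atp6. The first 48 bases of mt-Nd3 (chrM:9459-9506, plus strand) and of its copy Gm28438 (chr1:24613072-24613119, minus strand) are shown because they hold the only difference found between them over 345 aligned bases, T3C, counted from the first base of mt-Nd3 and given in capitals.
mt-Nd3: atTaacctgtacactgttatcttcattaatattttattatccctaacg
Gm28438: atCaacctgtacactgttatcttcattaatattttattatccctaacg
For mt-Co2 no difference was found over 681 aligned bases. The stretch below, bases 298 to 388 of mt-Co2 (chrM:7310-7400, plus strand), is shown because it reads the same in mt-Co2, in its chromosome 1 copy Gm28661 (chr1:24615178-24615268, minus strand) and in Gm13341 (chr2:22587575-22587665, minus strand).
mt-Co2: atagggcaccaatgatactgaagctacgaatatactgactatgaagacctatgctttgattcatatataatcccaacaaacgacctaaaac

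These copies coincided with the genes that were hardly counted. Of all 50-base words of mt-Co2, 100% also occurred in another annotated gene, and the gene held 178 counts over all 11 libraries, or 0.260 counts per base. mt-Co3 shared 99.9% of its words and held 160 counts, mt-Atp6 99.5% and 207, mt-Nd4l 98.8% and 210, and mt-Nd3 97.99% and 1288. By contrast mt-Cytb, with no shared word, held 304075 counts or 266 per base, and mt-Nd1, also without one, held 150324. mt-Co1, which shared 51.1% of its words, held 757356 counts, and mt-Nd4, with 62.2%, held 103236. mt-Atp8 was an exception, with 65 counts and no shared word. In the chromosome 1 block 233 bases without annotation (chr1:24614652-24614884) lie between the copies of mt-Atp6 and mt-Co2. In the mitochondrial genome mt-Atp8, 204 bases long, begins between those genes and shares 43 bases with mt-Atp6. An overlap of 43 bases is too short to hold a 50-base word. The sequence of the 233 bases was not examined. The sources used here do not say how reads that fit several places were treated, and the part of that step in the low counts was not tested. Those 6 genes (mt-Nd3, mt-Nd4l, mt-Co2, mt-Co3, mt-Atp6 and mt-Atp8) were set apart after their counts had been seen, and their values are given apart from the 7 others.

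**Figure D1:**
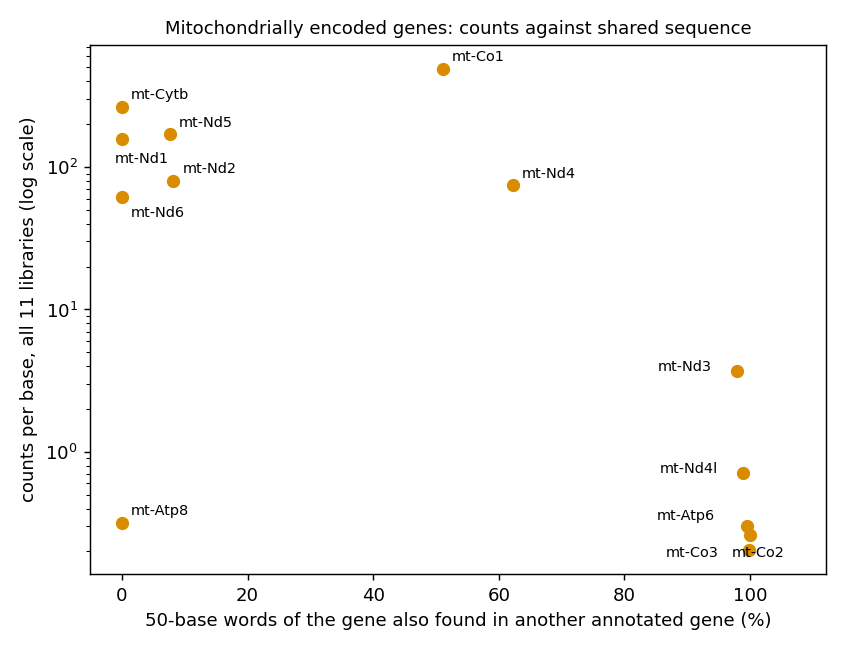
Counts per base over all 11 libraries (vertical, log scale) of the 13 mitochondrially encoded genes against the percent of their 50-base words that occur in another annotated gene (horizontal). mt-Nd3, mt-Nd4l, mt-Co2, mt-Co3 and mt-Atp6 lie at the far right between 0.204 and 3.70 counts per base, and mt-Atp8 lies as low at the far left.

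Per length, the well-counted mitochondrial genes stood above every nuclear subunit gene. Levels are CPM divided by the exon length in kilobases (RPKM), averaged over the 11 libraries. mt-Co1, the catalytic core of complex IV, reached 1190 RPKM, mt-Cytb 645 and mt-Nd5 416. The tested nuclear genes had medians of 12.4 RPKM in complex I, 15.2 in complex II, 17.8 in complex III, 32.5 in complex IV and 20.96 in complex V. The highest nuclear member was Atp5a1, the alpha subunit of the ATP synthase, with 92.3 RPKM. Cox8a led complex IV with 67.7, Ndufa13 complex I with 52.6, Uqcrh complex III with 52.4 and Sdha complex II with 38.3 RPKM. The lowest tested nuclear gene was Atp5s with 0.719 RPKM; the nuclear genes below the count filter and the low-count mt-Co3 (0.491 RPKM) lay lower. RPKM of genes that share sequence or exons with others rests on how such reads were assigned, as for the 2 genes both named Atp5o, of whose words 89.8% and 41.6% were shared.

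**Figure D2:**
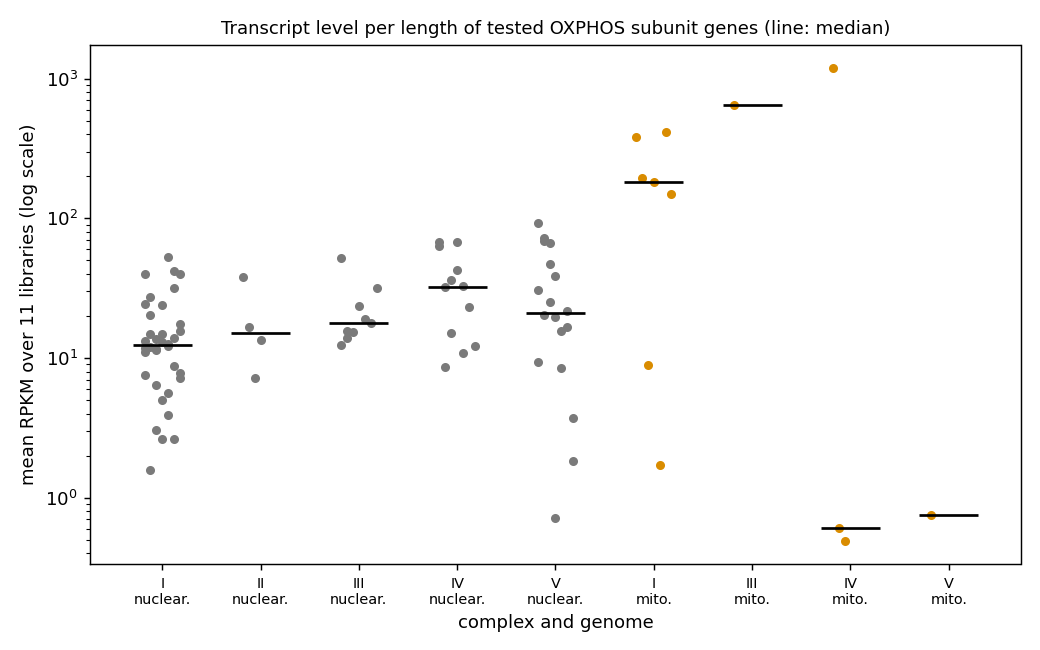
Mean RPKM over 11 libraries (vertical, log scale) of each tested subunit gene, by complex and genome, with a line at the median. Nuclear genes range from 0.719 to 92.3 RPKM. The mitochondrial genes split into a group of 7 with mt-Co1 at the top (1190 RPKM) and a low group that includes mt-Co3 (0.491 RPKM).

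The genotypes were compared gene by gene to ask whether loss of Atg5 in T cells went with altered OXPHOS transcripts. Of the 100 genes, 91 had enough counts to be tested, 79 nuclear and 12 mitochondrial. Ndufa13 and Cox8a were higher in Atg5-deficient libraries at an adjusted p under 0.05 (edgeR's quasi-likelihood test, Benjamini-Hochberg over all genes), none was lower and 89 were not called. Among all 17987 genes tested 6.84% were called, 4.43% as higher and 2.41% as lower. The share among the subunit genes, 2.20%, was therefore not above that of all genes. No tested member had groups without overlap, against 4.86% of all genes (2.78% with every Atg5-deficient library higher and 2.08% with every one lower). Most estimates still lay on one side: 65 of 79 nuclear genes (82.3%) had a log2 fold change above 0, with a median of 0.14, against 49.7% of all genes and a median of -0.0027. Of 12 mitochondrial genes 2 had a value above 0, and the median was -0.22. That median includes low-count genes, with values down to -1.65 (mt-Co2). The 7 well-counted genes lay between -0.32 (mt-Nd2) and 0.03 (mt-Nd6). A stricter count filter, which kept only these 7, gave them a median of -0.18 with none above 0. The shares above 0 are descriptions over genes that share the same 11 libraries and carry no p. At an unadjusted p under 0.05, 13 nuclear genes (16.5%) were higher and 1 (1.27%) lower, against 12.7% and 10.6% of all genes.

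**Figure D3:**
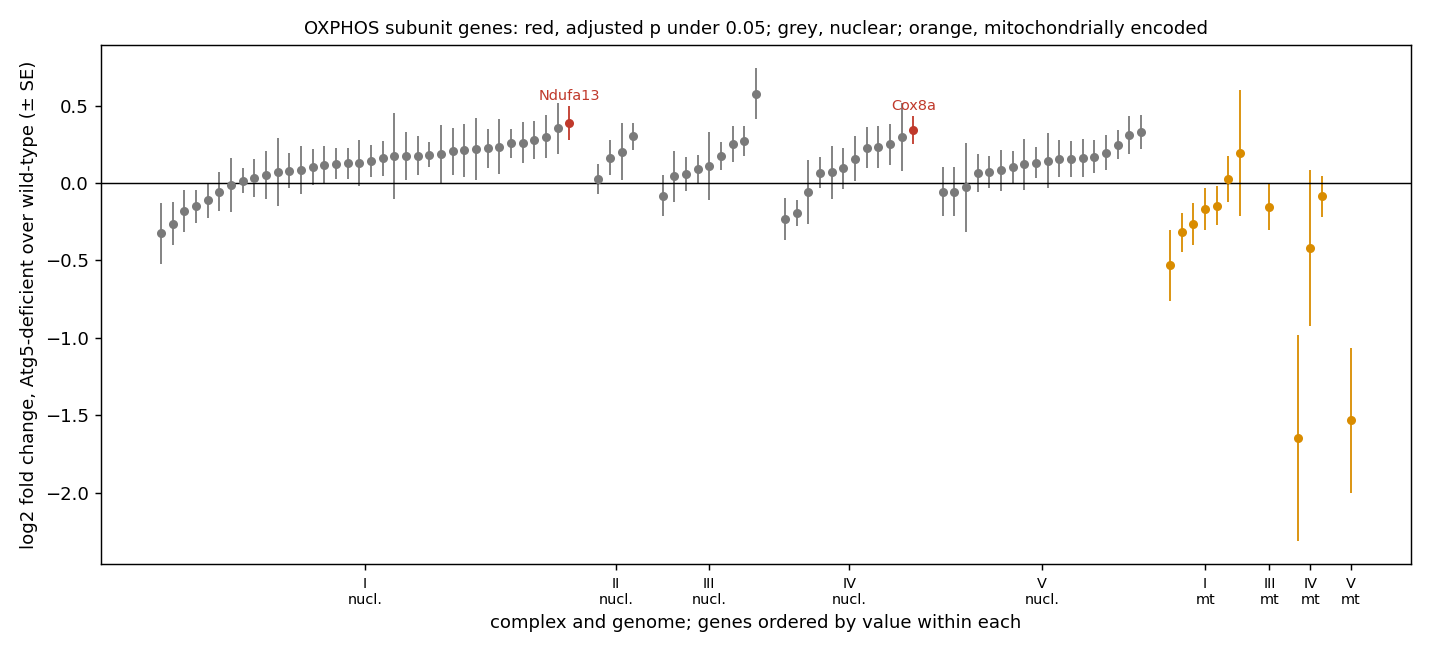
Log2 fold change of Atg5-deficient over wild-type libraries (vertical, bars are SE) for each tested subunit gene, ordered by value within complex and genome. The nuclear genes lie between -0.32 and 0.58, mostly above 0; red marks Ndufa13 and Cox8a. The mitochondrial genes lie mostly below 0, with wide bars for the low-count mt-Co2 and mt-Atp6.

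The number of calls depended on single libraries. Leaving out Atg5-deficient replicate 3 raised the nuclear genes called higher from 2 to 10, and leaving out wild-type replicate 2 raised them to 6. The share of all genes called in either direction was 12.1% and 5.68% in these fits, against 6.84% with all libraries. Without Atg5-deficient replicate 6 there were 2 nuclear genes called higher (Cox8a and Sdhb), with 7.63% of all genes called. Leaving out any of the other 8 libraries gave 0, with 3.53% to 5.52% of all genes called. No nuclear gene was called lower in any of these fits. The nuclear median of 0.14 became 0.09 without wild-type replicate 1 and 0.21 without wild-type replicate 2. DESeq2 called 5 nuclear genes higher, with 12.97% of all genes called in either direction, and limma-voom with sample weights 24, with 19.05% of all genes called and a nuclear median of 0.23. Among the 8 libraries whose titles carry consecutive numbers, 5 Atg5-deficient and 3 wild-type, no subunit gene was called, with 0.935% of all genes called, and 61 of 79 nuclear genes lay above 0 with a median of 0.07. With upper-quartile scaling, which moved the median of all genes to -0.07, no member was called, and 57 of 79 nuclear genes lay above 0 with a median of 0.07. The labels do not say what the numbers in the titles stand for.

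Complex I, the largest complex, had 29 of 36 nuclear genes above 0 with a median log2 fold change of 0.14, and 1 call by edgeR (DESeq2 called 1 and limma-voom 9). The edgeR call was 2.78% of the 36, against 4.43% of all genes called higher. Ndufa13 (ENSMUSG00000036199, chr8:69894180-69902558, GRCm38, minus strand), an accessory subunit also known as GRIM-19, was at 60.6 (lowest), 74.6 (median) and 82.3 (highest) CPM in the Atg5-deficient libraries. Its wild-type values were 46.6, 71.05, 54.1, 55.1 and 55.3 CPM. 4 of 6 Atg5-deficient libraries lay above all wild-type ones, and wild-type replicate 2 reached into the Atg5-deficient range. The means were 73.7 ± 8.50 (SD, n = 6) against 56.4 ± 8.94 CPM (SD, n = 5), a log2 fold change of 0.39 (SE 0.11, adjusted p = 0.0495), with a 95% interval of 0.15 to 0.62. The call was kept without Atg5-deficient replicate 3 or wild-type replicate 2 and lost without any other library (adjusted p 0.0528 to 0.117), with upper-quartile scaling (0.0746) and with hepatocyte markers as a covariate (0.0524). Ndufa13 shares 375 exonic bases with Tssk6 on the opposite strand, which held 323 counts against its own 27065. 5 complex I genes (13.9%) were higher at an unadjusted p under 0.05, against 12.7% of all genes, and none was lower. Ndufv3, next to the flavin-binding subunit, had a log2 fold change of 0.26 (SE 0.09, adjusted p = 0.117). Ndufa9, an accessory subunit, had one of 0.28 (SE 0.12, adjusted p = 0.185). At the other end Ndufb4, an accessory subunit of the membrane arm, had -0.32 (SE 0.20, adjusted p = 0.345).

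Complex II is succinate dehydrogenase, shared with the TCA cycle and wholly nuclear encoded. All 4 genes had values above 0 and edgeR called none. At an unadjusted p under 0.05 only Sdhb was higher (25% of the 4, against 12.7% of all genes). DESeq2 and limma-voom called Sdhb higher, as did edgeR with library sizes without mitochondrial genes and with the strict filter. Sdhb, the iron-sulfur subunit, came closest, with 37.2 (lowest), 41.4 (median) and 45.4 (highest) CPM in Atg5-deficient libraries and 30.5, 38.99, 31.3, 31.7 and 34.4 CPM in wild-type libraries. 5 of 6 Atg5-deficient libraries lay above all wild-type ones, and the sixth lay below wild-type replicate 2. The means were 41.1 ± 2.88 (SD, n = 6) against 33.4 ± 3.46 CPM (SD, n = 5), a log2 fold change of 0.30 (SE 0.09, adjusted p = 0.0515). The flavin-carrying subunit Sdha did not follow it, with means of 159.5 ± 24.5 (SD, n = 6) against 156 ± 4.84 CPM (SD, n = 5) and a log2 fold change of 0.03 (SE 0.10, adjusted p = 0.897); its sign turned with upper-quartile scaling (-0.045). The membrane anchors Sdhc and Sdhd had log2 fold changes of 0.16 (SE 0.11, adjusted p = 0.423) and 0.20 (SE 0.18, adjusted p = 0.551).

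Complex III had 8 of 9 nuclear genes above 0 with a median of 0.11, and no call by edgeR. At an unadjusted p under 0.05, 3 (33.3%) were higher, against 12.7% of all genes. DESeq2 called Uqcr11 higher, and limma-voom Uqcr11, Uqcrc1, Uqcrfs1 and Uqcrq. Uqcr11, its smallest subunit, had the highest estimate of all nuclear members, with 8.71 (lowest), 11.7 (median) and 13.9 (highest) CPM against 6.30, 10.6, 8.37, 7.07 and 6.65 CPM in wild type. 5 of 6 Atg5-deficient libraries lay above the wild-type range, with Atg5-deficient replicate 3 inside it. The means were 11.6 ± 1.82 (SD, n = 6) against 7.80 ± 1.76 CPM (SD, n = 5), a log2 fold change of 0.58 (SE 0.17, adjusted p = 0.0504). Uqcrc1, a core subunit, stood at 85.8 ± 9.64 (SD, n = 6) against 70.9 ± 8.09 CPM (SD, n = 5) and had a log2 fold change of 0.27 (SE 0.10, adjusted p = 0.0994). For Uqcrq, a small subunit, the value was 0.25 (SE 0.11, adjusted p = 0.197), and for Uqcrfs1, the Rieske iron-sulfur protein, 0.18 (SE 0.09, adjusted p = 0.264).

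In complex IV, 12 of 20 nuclear genes were tested, 9 had values above 0, the median was 0.13, and edgeR and DESeq2 each called 1 (limma-voom 4). The edgeR call was 8.33% of the 12, against 4.43% of all genes called higher. At an unadjusted p under 0.05, 1 (8.33%) was higher and 1 (8.33%) lower, against 12.7% and 10.6% of all genes. Cox8a (ENSMUSG00000035885, chr19:7215153-7217616, GRCm38, minus strand), a small subunit that spans the membrane, was at 39.3 (lowest), 46.9 (median) and 51.2 (highest) CPM in Atg5-deficient libraries. The wild-type libraries held 31.3, 42.1, 35.6, 36.2 and 37.6 CPM. 5 of 6 Atg5-deficient libraries lay above all wild-type ones, and Atg5-deficient replicate 3 lay below wild-type replicate 2. The means were 46.3 ± 3.89 (SD, n = 6) against 36.6 ± 3.88 CPM (SD, n = 5), a log2 fold change of 0.34 (SE 0.09, adjusted p = 0.0388), with a 95% interval of 0.15 to 0.54. The call was kept without Atg5-deficient replicate 3 or 6 or wild-type replicate 2, and lost without any other library (adjusted p 0.0597 to 0.0941), with upper-quartile scaling (0.0664) and without the count filter (0.0882). Cox6c and Cox5b, nuclear subunits around the catalytic core, had log2 fold changes of 0.25 (SE 0.13, adjusted p = 0.271) and 0.23 (SE 0.13, adjusted p = 0.311). Cox6c shares 250 exonic bases with Vps13b on the opposite strand, which held 72368 counts against its 33811. Cox7a2l, a factor that joins complexes III and IV into supercomplexes, was the 1 nuclear member lower at an unadjusted p under 0.05. Its means were 93.6 ± 8.72 (SD, n = 6) against 107 ± 8.38 CPM (SD, n = 5) and its log2 fold change -0.19 (SE 0.08, adjusted p = 0.177).

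Several complex IV subunits exist as a broadly expressed form and a form known from muscle, heart, lung or testis. The broad forms were counted well: Cox4i1 at 100.4 ± 12.7 (SD, n = 6) against 95.9 ± 10.02 CPM (SD, n = 5) and a log2 fold change of 0.07 (SE 0.10, adjusted p = 0.742), Cox6a1 with 0.16 (SE 0.14, adjusted p = 0.548), Cox6b1 with 0.23 (SE 0.14, adjusted p = 0.328) and Cox7a2 with -0.06 (SE 0.21, adjusted p = 0.900). Their tissue forms, and Ndufa4l2, a relative of Ndufa4, did not reach the count filter. Summed over 11 libraries, Cox4i2 held 6 counts, Cox6a2 23, Cox6b2 52, Cox7a1 42, Cox8b 1, Cox8c 4 and Ndufa4l2 14, and Cox7b2 held none. Of these Cox6b2, the testis form, had groups that did not overlap, with 4, 12, 8, 4, 6 and 12 counts in Atg5-deficient and 0, 2, 2, 2 and 0 in wild-type libraries. It was picked after its values were seen and was not tested. The 4.86% of all genes without overlap covers tested genes only, and no such share was taken for genes below the count filter. Ndufa4 had a log2 fold change of 0.07 (SE 0.17, adjusted p = 0.847).

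Complex V had 15 of 18 genes above 0 with a median of 0.14, and no call by edgeR. At an unadjusted p under 0.05, 3 (16.7%) were higher, against 12.7% of all genes. DESeq2 called Atp5f1 higher, and limma-voom Atp5f1 with 5 others (Atp5c1, Atp5d, Atp5g3, Atp5j and Atp5j2). Atp5f1, subunit b of the peripheral stalk, was at 55.4 (lowest), 78.9 (median) and 85.1 (highest) CPM in Atg5-deficient libraries and at 54.2, 61.8, 53.7, 59.9 and 69.3 CPM in wild type. 5 of 6 Atg5-deficient libraries lay above all wild-type ones, and Atg5-deficient replicate 3 lay within their range. The means were 75.1 ± 10.7 (SD, n = 6) against 59.8 ± 6.40 CPM (SD, n = 5), a log2 fold change of 0.33 (SE 0.11, adjusted p = 0.0824). Atp5f1 shares exonic bases with Wdr77 and Gm42890 on the opposite strand, which held 6637 and 5517 counts against its 28146. Atp5j shares 397 with Gabpa on the opposite strand, which held 31834 counts against its 25253. In the rotor's central stalk Atp5d had a log2 fold change of 0.25 (SE 0.09, adjusted p = 0.124) and Atp5c1 of 0.20 (SE 0.11, adjusted p = 0.319). Atp5j2, subunit f of the membrane part, had 0.31 (SE 0.12, adjusted p = 0.135). The 3 genes for the c-ring, which make the same mature protein, had values of 0.15 for Atp5g1, 0.08 for Atp5g2 and 0.17 for Atp5g3.

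**Figure D4:**
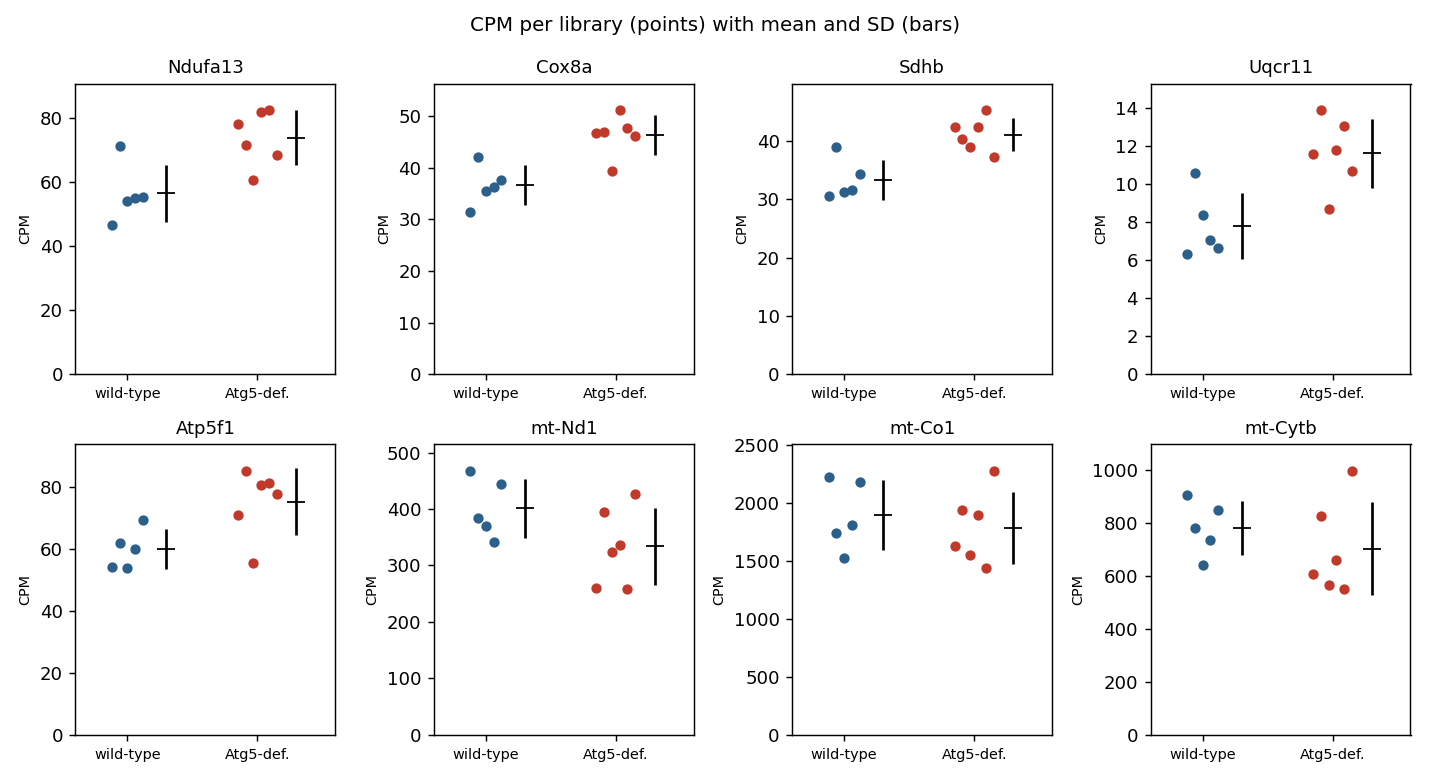
CPM (vertical, from 0) of 8 subunit genes in each wild-type (blue) and Atg5-deficient (red) library, with mean and SD beside the points. The groups overlap in every panel; for Cox8a, Sdhb, Uqcr11 and Atp5f1 the overlap rests on 1 Atg5-deficient library, and for mt-Nd1, mt-Co1 and mt-Cytb the Atg5-deficient libraries spread wider downwards, with the highest library of mt-Co1 and mt-Cytb also Atg5-deficient.

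None of the 12 tested mitochondrial genes was called in either direction by edgeR. At an unadjusted p under 0.05, 4 were lower (mt-Atp6, mt-Nd2, mt-Co2 and mt-Nd3) and none was higher, against 10.6% and 12.7% of all genes. DESeq2 called mt-Atp6 lower, as did edgeR with hepatocyte markers as a covariate and edgeR without wild-type replicate 1; limma-voom called none. Among the 7 well-counted genes, mt-Nd2, a proton-pumping subunit of complex I, was at 138 (lowest), 171 (median) and 231 (highest) CPM in Atg5-deficient and 249.7, 226, 227, 199 and 232 CPM in wild-type libraries. 4 of 6 Atg5-deficient libraries lay below all wild-type ones, and the other two lay inside the wild-type range. The means were 182 ± 37.6 (SD, n = 6) against 227 ± 18.2 CPM (SD, n = 5), a log2 fold change of -0.32 (SE 0.13, adjusted p = 0.139). mt-Nd1, which joins the membrane arm to the quinone site, was at 334 ± 68.6 (SD, n = 6) against 401 ± 52.7 CPM (SD, n = 5), with a log2 fold change of -0.27 (SE 0.14, adjusted p = 0.256), and its values showed the same picture, with 4 of 6 Atg5-deficient libraries below all wild-type ones.

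mt-Nd4 and mt-Nd5, the other large pumping subunits, had log2 fold changes of -0.14 (SE 0.13, adjusted p = 0.530) and -0.17 (SE 0.13, adjusted p = 0.497). mt-Cytb, the core of complex III, was at 552 (lowest), 634 (median) and 997 (highest) CPM in Atg5-deficient and at 905, 782, 639.8, 734 and 847 CPM in wild-type libraries, a log2 fold change of -0.15 (SE 0.15, adjusted p = 0.586). mt-Co1 was at 1437 (lowest), 1764 (median) and 2279.8 (highest) CPM in Atg5-deficient and at 2229, 1743, 1526, 1814 and 2179 CPM in wild-type libraries, a log2 fold change of -0.09 (SE 0.13, adjusted p = 0.745), with a 95% interval of -0.37 to 0.20. As a ratio that interval runs from 0.776 to 1.14. mt-Nd6, the only subunit gene on the other strand of the circle, had a log2 fold change of 0.03 (SE 0.15, adjusted p = 0.939), and its sign turned with upper-quartile scaling (-0.040). It shares 14 bases with mt-Nd5.

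The 6 low-count genes carried most of the large estimates. mt-Atp6 held 11, 9, 11, 8, 8 and 13 counts in Atg5-deficient and 9, 41, 49, 22 and 26 in wild-type libraries, a log2 fold change of -1.53 (SE 0.47, adjusted p = 0.0636). mt-Co2 held 12, 6, 10, 3, 6 and 9 counts against 11, 21, 80, 3 and 17, with -1.65 (SE 0.66, adjusted p = 0.147). Both were highest in wild-type replicates 2 and 3. Those libraries also stood apart in the chromosome 1 copies, with 62.8 and 105 summed CPM of total counts against 8.72 to 16.8 in the other 9 libraries. Leaving out wild-type replicate 3 gave mt-Co2 a log2 fold change of -0.81 and mt-Atp6 one of -1.38. Without wild-type replicate 2 mt-Atp6 had -1.27. The part of these copies in the low-count genes' values was not tested. mt-Nd3, mt-Nd4l and mt-Co3 had log2 fold changes of -0.53 (SE 0.23, adjusted p = 0.181), 0.20 (SE 0.41, adjusted p = 0.817) and -0.42 (SE 0.51, adjusted p = 0.668). mt-Co3 turned to 0.019 without wild-type replicate 3. mt-Atp8 held 5, 1, 3, 2, 1 and 5 counts against 5, 10, 21, 5 and 7, and was not tested.

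The other RNAs of the mitochondrial chromosome gave no call by edgeR, DESeq2 or limma-voom. The 2 ribosomal RNAs, mt-Rnr1 and mt-Rnr2, which made up most of its counts, had log2 fold changes of -0.14 and -0.02 and were not called. Of 22 transfer RNA genes 13 were tested and 3 had values above 0. At an unadjusted p under 0.05, 2 (15.4%) were lower and none higher, against 10.6% and 12.7% of all genes. The mitochondrial chromosome held 6.97% ± 1.23 (SD, n = 6) of the counts in Atg5-deficient and 7.15% ± 0.321 (n = 5) in wild-type libraries.

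Summed over all genes of each genome, the groups overlapped. The nuclear genes summed to 3473, 3659, 2722, 3537, 3701 and 3212 CPM in Atg5-deficient replicates 1 to 6 and to 2761, 3607, 3050, 3033 and 3011 CPM in wild-type replicates 1 to 5. Means were 3384 ± 367 and 3093 ± 311 CPM, a ratio of 1.09. Atg5-deficient replicate 3 lay below all wild-type libraries, and Atg5-deficient replicates 2 and 5 above them. That order depended on the scaling. As a percent of total counts, 5 of 6 Atg5-deficient libraries lay above all wild-type ones and 1 below. Those means were 0.341% ± 0.0340 and 0.305% ± 0.0175, a ratio of 1.12. The mitochondrial genes summed to 3645, 4525, 3710, 3966, 3151 and 5280 CPM and to 5059, 4424, 3851, 4110 and 4867 CPM, with means of 4046 ± 753 and 4462 ± 505, a ratio of 0.907. Here Atg5-deficient replicate 6 was the highest of all libraries and Atg5-deficient replicate 5 the lowest. The nuclear to mitochondrial ratio of summed counts was 0.953, 0.808, 0.734, 0.892, 1.17 and 0.608 in Atg5-deficient and 0.546, 0.815, 0.792, 0.738 and 0.619 in wild-type libraries. Its means were 0.862 ± 0.195 and 0.702 ± 0.116, and 3 of 6 Atg5-deficient libraries lay above all wild-type ones. Those means differed by less than the SD of the Atg5-deficient group, and no test was made on these sums. Each ratio is read within its library, since the genes differ in length.

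**Figure D5:**
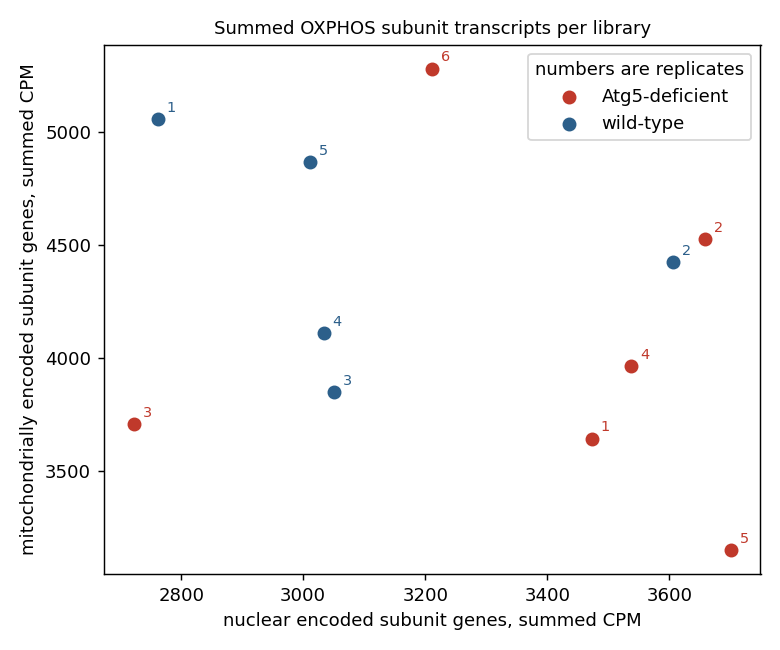
Summed CPM of the mitochondrially encoded (vertical) against the nuclear encoded (horizontal) subunit genes in each library; both axes are cut to the range of the data and numbers are replicates. Atg5-deficient replicate 5 sits lowest and farthest right (3701 and 3151 CPM), and replicate 3 at the left (2722 and 3710 CPM); the colours are not separated on either axis.

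Many of the nuclear genes moved together by library. Atg5-deficient replicate 3 was the lowest of 11 libraries for 37 of 79 nuclear genes and wild-type replicate 1 for 26. Atg5-deficient replicate 5 and wild-type replicate 2 were each the highest for 22, and Atg5-deficient replicate 2 for 19. Not all genes followed, since Atg5-deficient replicate 5 was also the lowest for 7. Atg5-deficient replicate 3 and wild-type replicate 1 also had the 2 lowest sums of CD4 T cell markers, 2877 and 3000 CPM, while 5 of 6 Atg5-deficient libraries lay above all wild-type libraries in that sum. The part of that difference in the nuclear subunit values was not tested. The mitochondrial genes followed another order, with Atg5-deficient replicate 5 the lowest for 6 of the 7 well-counted genes and Atg5-deficient replicate 6 the highest for 4.

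Genes that build or serve the complexes were read from lists. None of 14 complex I assembly factors and none of 33 assembly factors of complexes II to V was called by edgeR. At an unadjusted p under 0.05, 1 of the former was lower, and 4 of the latter were lower and 1 higher; among all genes 10.6% were lower and 12.7% higher, the shares against which the counts of this kind that follow are read. DESeq2 and limma-voom each called 1 higher and 1 lower of the latter and none of the former. Among all genes DESeq2 called 12.97% and limma-voom 19.05% in either direction, the shares against which their counts in the lists are read. Ndufaf4 had a log2 fold change of -0.41 (SE 0.14, adjusted p = 0.0921), and Cmc2, which acts in complex IV assembly, one of 0.69 (SE 0.24, adjusted p = 0.0983). Of 30 genes that copy, transcribe or process mitochondrial DNA and RNA, 9 had values above 0 and none was called; 6 were lower at an unadjusted p under 0.05 and none higher. DESeq2 called 1 of them lower and limma-voom 6, against 12.97% and 19.05% of all genes called by these tools in either direction. Twnk, the mitochondrial DNA helicase, was nearest with -0.41 (SE 0.12, adjusted p = 0.0514). Polg, the DNA polymerase, had -0.17 (SE 0.06, adjusted p = 0.127) and Pnpt1, which degrades mitochondrial RNA, -0.24 (SE 0.09, adjusted p = 0.140). Twnk and Polg had every Atg5-deficient library below all wild-type ones, and none of the 30 had every one above. Among all genes these shares were 2.08% and 2.78%. Of the lists that follow, 1 of 19 electron carriers and substrate shuttles had every Atg5-deficient library higher. In 1 of 23 import and outer membrane genes every one was lower. Of 78 mitochondrial ribosomal proteins 43 had values above 0, the median was 0.03 and none was called by edgeR or DESeq2 (9 higher and 3 lower at an unadjusted p under 0.05), while limma-voom called 9 higher and 1 lower.

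Calls by edgeR were found in 3 of the related lists, 1 gene in each. They made up 9.09% of 11, 7.14% of 14 and 5.26% of 19 genes, against 6.84% of all genes. Among 11 regulators of mitochondrial genes Pprc1, a coactivator of the PGC-1 family, fell, with 57.6 ± 7.11 CPM against 74.99 ± 7.57 CPM in wild type, a log2 fold change of -0.38 (SE 0.10, adjusted p = 0.0324). Leaving out each library in turn lost the call 7 times (adjusted p up to 0.0814) and kept it without Atg5-deficient replicate 3, 5 or 6 or wild-type replicate 3. Its relative Ppargc1b had -0.31 (SE 0.13, adjusted p = 0.158), and Esrra, a nuclear receptor that works with these coactivators, 0.26 (SE 0.12, adjusted p = 0.206). Among 14 TCA cycle genes Idh3a, the catalytic subunit of NAD-dependent isocitrate dehydrogenase, rose, with 45.9 ± 5.91 against 36.04 ± 1.79 CPM, a log2 fold change of 0.35 (SE 0.10, adjusted p = 0.0433). Leaving out each library in turn kept the call 3 times (without Atg5-deficient replicate 3 or 6 or wild-type replicate 2; adjusted p up to 0.0973 in the others), and the call was also lost with upper-quartile scaling (0.0695) and without the count filter (0.0778). Citrate synthase, Cs, had 0.24 (SE 0.12, adjusted p = 0.236) and Suclg2 -0.25 (SE 0.09, adjusted p = 0.110). Among 19 electron carriers and substrate shuttles Slc25a4, an ADP/ATP carrier of the inner membrane, rose, with 64.5 ± 9.92 against 45.6 ± 6.02 CPM, a log2 fold change of 0.50 (SE 0.12, adjusted p = 0.0224). Its call was lost without Atg5-deficient replicate 2 or wild-type replicate 1, 4 or 5 (adjusted p up to 0.0591). Among the 8 libraries with consecutive title numbers none of the 3 genes was called. Etfb and Etfdh, which pass electrons from fatty acid oxidation to ubiquinone, had 0.60 (SE 0.19, adjusted p = 0.0762) and 0.27 (SE 0.09, adjusted p = 0.0848). Of 23 import and outer membrane genes edgeR called none, DESeq2 1 lower and limma-voom 2 higher and 1 lower; 3 were lower and 1 higher at an unadjusted p under 0.05, with Timm9 at -0.44 (SE 0.15, adjusted p = 0.0903) and Vdac1 at 0.30 (SE 0.13, adjusted p = 0.170).

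Promoters of the nuclear genes were searched for 3 motifs known for mitochondrial genes, on both strands, from 250 bases before to 50 bases after the start (RefSeq, GRCm38.p6). Of the 79 tested nuclear genes 63 had an entry and were searched, each at its first listed start. The promoters of all protein-coding genes with an entry, tested here or not, served for comparison. The NRF-1 motif, the palindrome GCGCA followed directly by TGCGC, was in 5 of them (7.94%) and in 1.32% of all 17492 promoters. The ETS motif CCGGAAG was in 15 (23.8%, against 11.9%) and the YY1 motif GCCATNTT in 14 (22.2%, against 6.69%). At least 1 motif was in 31 of 63 (49.2%) and in 18.4% of all. The promoters of both genes that edgeR called with all libraries are shown. Cox8a (chr19:7217567-7217866, minus strand) holds 2 matches to the ETS motif, in capitals and read from the other strand as CTTCCGG. Ndufa13 (chr8:69901971-69902270, minus strand) holds none of the 3 motifs. That window lies wholly inside the annotated Ndufa13 gene (chr8:69894180-69902558). The bases around the gene's outermost start, at 69902558, were not searched. A match describes letters only, and no binding was measured.
Cox8a: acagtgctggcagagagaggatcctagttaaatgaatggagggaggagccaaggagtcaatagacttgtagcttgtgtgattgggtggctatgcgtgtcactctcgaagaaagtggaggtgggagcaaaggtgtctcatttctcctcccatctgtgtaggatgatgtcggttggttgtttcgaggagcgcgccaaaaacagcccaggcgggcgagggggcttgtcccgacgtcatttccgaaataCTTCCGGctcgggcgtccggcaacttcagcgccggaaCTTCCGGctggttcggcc
Ndufa13: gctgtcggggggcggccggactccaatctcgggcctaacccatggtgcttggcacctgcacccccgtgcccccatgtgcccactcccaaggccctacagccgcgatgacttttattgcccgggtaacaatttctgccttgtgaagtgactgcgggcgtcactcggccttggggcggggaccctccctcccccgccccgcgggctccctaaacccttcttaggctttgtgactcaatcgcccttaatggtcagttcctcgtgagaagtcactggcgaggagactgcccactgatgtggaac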

How the data were processed

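RNA-seq of 11 libraries (6 Atg5-deficient, 5 wild-type) was used as the raw gene counts that the authors deposited; per the submitters' processing notes reads were aligned with STAR to GRCm38 and counted with featureCounts, and the stranded kit is named per the labels. The sources used here give no versions, strand setting or treatment of multiply mapped reads. Gene IDs were named from GENCODE M21 (52125 of 56748 matched). Genes passing filterByExpr (minimum count 10, total 15) were fitted with edgeR 4.0.16 in R 4.3.3 (TMM, robust quasi-likelihood test, genotype only) and adjusted by Benjamini-Hochberg over all 17987 genes, with a threshold of 0.05. The code was tested on simulated data. CPM use TMM-scaled library sizes, and RPKM the summed exon length. Shared sequence was counted as words of 50 bases found in another annotated gene. Sums over genes were not tested. Named were every mitochondrial subunit, every called member, the 4 nuclear members of each complex with the smallest unadjusted p, tissue isoforms, and up to 4 genes of each related list; Ndufb4, Cox6b2 and the highest and lowest levels were named after their values were seen. One complex I gene that the rule names is not reported here. The members and lists were chosen with earlier results of these data known. Alternatives were DESeq2 1.42.0, limma 3.58.1 (voom with sample weights), other scalings, library sizes and filters, a hepatocyte covariate, and leaving out libraries. Replicate numbers follow the order of deposit and pair nothing.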

Additional observations from a re-analysis of the deposited data

Results flagged for a closer look

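In 86 groups of libraries tested for a single value far from the rest, 4 were marked, and chance marks about 1 in 20. mt-Co3 stood at 0.173 CPM in Atg5-deficient replicate 5, with the nearest library of that group at 0.333 CPM. Uqcrfs1, the Rieske protein of complex III, stood at 36.8 CPM in Atg5-deficient replicate 6, with the nearest at 46.3 CPM. Cox6c stood at 99.3 CPM in wild-type replicate 2, with the nearest at 71.4 CPM. Atp5g1, a gene for the c-ring of the ATP synthase, stood at 6.54 CPM in Atg5-deficient replicate 6, with the nearest at 9.43 CPM.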

How the results depend on the processing

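The count of nuclear genes called higher was 2 as reported. It was 0 with upper-quartile scaling and among the 8 libraries with consecutive title numbers, 1 without a count filter (Cox8a lost) and 1 with hepatocyte markers as a covariate (Ndufa13 lost). It was 4 with library sizes without mitochondrial genes, 4 also without haemoglobin and hepatocyte genes, 4 with the strict filter, 5 with DESeq2 and 24 with limma-voom. Leaving out 1 library gave 0 to 10, with 3.53% to 12.1% of all genes called. The share of all genes called was 6.84% as reported, 7.06% with upper-quartile scaling and 0.935% among the 8 libraries. It was 3.07% without a count filter, 7.70% with the hepatocyte covariate and 7.14% with either changed library size. With the strict filter it was 12.5%, with DESeq2 12.97% and with limma-voom 19.05%. Mitochondrial genes called lower numbered 0 as reported and 1 with DESeq2 and with the hepatocyte covariate; leaving out 1 library gave 0 to 1. The cause was not tested. Between 57 and 70 of 79 nuclear genes lay above 0 in every setting that tested 79. Small estimates changed sign. mt-Co3 was 0.11 with limma-voom, and -0.62 to 0.019 when 1 library was left out (above 0 without wild-type replicate 3). mt-Nd6 was -0.040 with upper-quartile scaling, -0.0021 with the strict filter and -0.0087 among the libraries with consecutive numbers, and -0.064 to 0.095 when 1 library was left out; it was below 0 without Atg5-deficient replicate 2, 4 or 6 or wild-type replicate 4. Sdha was -0.045 with upper-quartile scaling, -0.0040 with the strict filter, and -0.057 to 0.073 when 1 library was left out (below 0 without Atg5-deficient replicate 5). Cox4i1 was -0.0034 with upper-quartile scaling, and Cox7a2 0.19 with limma-voom and -0.14 to 0.098 when 1 library was left out (above 0 without Atg5-deficient replicate 3 or wild-type replicate 2 or 3). Among the libraries with consecutive numbers Ndufa4 was -0.10 and Atp5g2 -0.0073; Ndufa4 was -0.027 to 0.21 when 1 library was left out (below 0 without wild-type replicate 1 or 5). The ratios of summed CPM moved by less than the spread between replicates. No paired analysis was possible because the replicate numbers follow the order of deposit and pair no libraries. The 6 low-count mitochondrial genes rest on 1288 counts or fewer each, which limits their precision; why so few were counted was not tested.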
